A study of Mus musculus with 6 samples.

Results

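The genes described here encode RNA polymerase I, its initiation factors and the nucleolar proteins that turn its transcript into ribosomal subunits. They were taken as a list of 50 mouse symbols, and 49 were found, by symbol, among the 26286 genes measured. Noc2l, the remaining symbol, was not matched to a row and was not analysed here. The study compared leukemia cells of 3 mice fed doxycycline (dox) for 3 days with those of 3 untreated mice (0 days), and all hosts were leukemic Rag1 knockout mice. Per the labels, each library was 1 mouse's marrow cells of the tri-transgenic leukemia A024, which models B progenitor acute lymphoblastic leukemia, so no other leukemia is covered. No mice given dox without the transgenes were analysed here. Dox libraries were sorted as GFP-mid and untreated libraries as GFP-high bone marrow cells, so the sort gate and the treatment changed together and cannot be told apart. The labels describe dox as restoring Pax5, the factor that commits progenitors to the B lineage. In the published model, dox turns off a GFP-linked hairpin against Pax5.

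Ribosomes are made in the nucleolus. RNA polymerase I (Pol I) copies the ribosomal DNA into a long precursor, which small nucleolar ribonucleoproteins (snoRNPs) modify and a large assembly of proteins, the small subunit processome, folds and cuts. Separate sets of factors then build the small (40S) and large (60S) subunits. Growing and dividing lymphoid cells are known to run this programme at a high rate, and Myc is known to drive it.

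Total counts ran from 14432213 to 15612435 in dox libraries and from 14185203 to 15053258 in untreated libraries, and each of the 49 genes had between 193 and 33404 reads in each library. Levels are given as CPM, the usual depth-scaled read counts, after TMM scaling (trimmed means of M values), and each p was adjusted by Benjamini-Hochberg over the 12275 genes that passed a low-count filter. A gene was called at an adjusted p under 0.05 in the quasi-likelihood test of edgeR. The p-values measure the spread between mice that carry this leukemia. CPM are shares of the reads, so a change in total RNA per cell cannot be seen, and fewer cells of a type cannot be told apart from less RNA per cell.

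The B lineage identity of the sample was checked on 10 markers, of which Cd79b (log2 fold change 1.15, standard error (SE) 0.08) and 8 others, Pax5 among them (1.07, SE 0.17), were higher in dox libraries and Cd24a (-0.88, SE 0.08) was lower. Neutrophil markers summed to 114.9 to 537.4 CPM in dox libraries and 90.9 to 115.3 CPM in untreated libraries, with 7 of 8 tested called higher. Macrophage markers summed to 51.4 to 113.3 CPM in dox libraries and 20.1 to 29.2 CPM in untreated libraries, with 8 of 9 called higher. No tested marker was called for erythroid cells (4 tested), T and NK cells (1) or megakaryocytes (1), and Cd3e and Cd8a, which mark T cells, were at 0 in every library. These 5 lists together took 0.0201% to 0.0727% of the reads in dox libraries and 0.015% to 0.0199% in untreated libraries, the highest share being that of dox replicate 1. The 12 cell cycle markers were all lower and summed to 3443 to 4133 CPM in dox libraries and 7165 to 8526 CPM in untreated libraries. The part of these cells and of cell division in the results below was not tested.

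All 49 genes were lower in dox libraries, and none was higher. Across all genes tested, 53.6% were called in either direction, 26.6% lower and 27% higher. The median log2 fold change of the 49 genes was -0.68, against 0.01 for all genes tested, and single genes lay between -1.21 and -0.27. The fold was at least 1.5 for 34 genes, which 11.8% of all genes tested reached in that direction, and at least 2 for Polr1b and Gnl3, which 3.86% reached. Every dox library lay below every untreated library for each of the 49 genes, as it did for 31% of all genes tested.

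**Figure D1:**
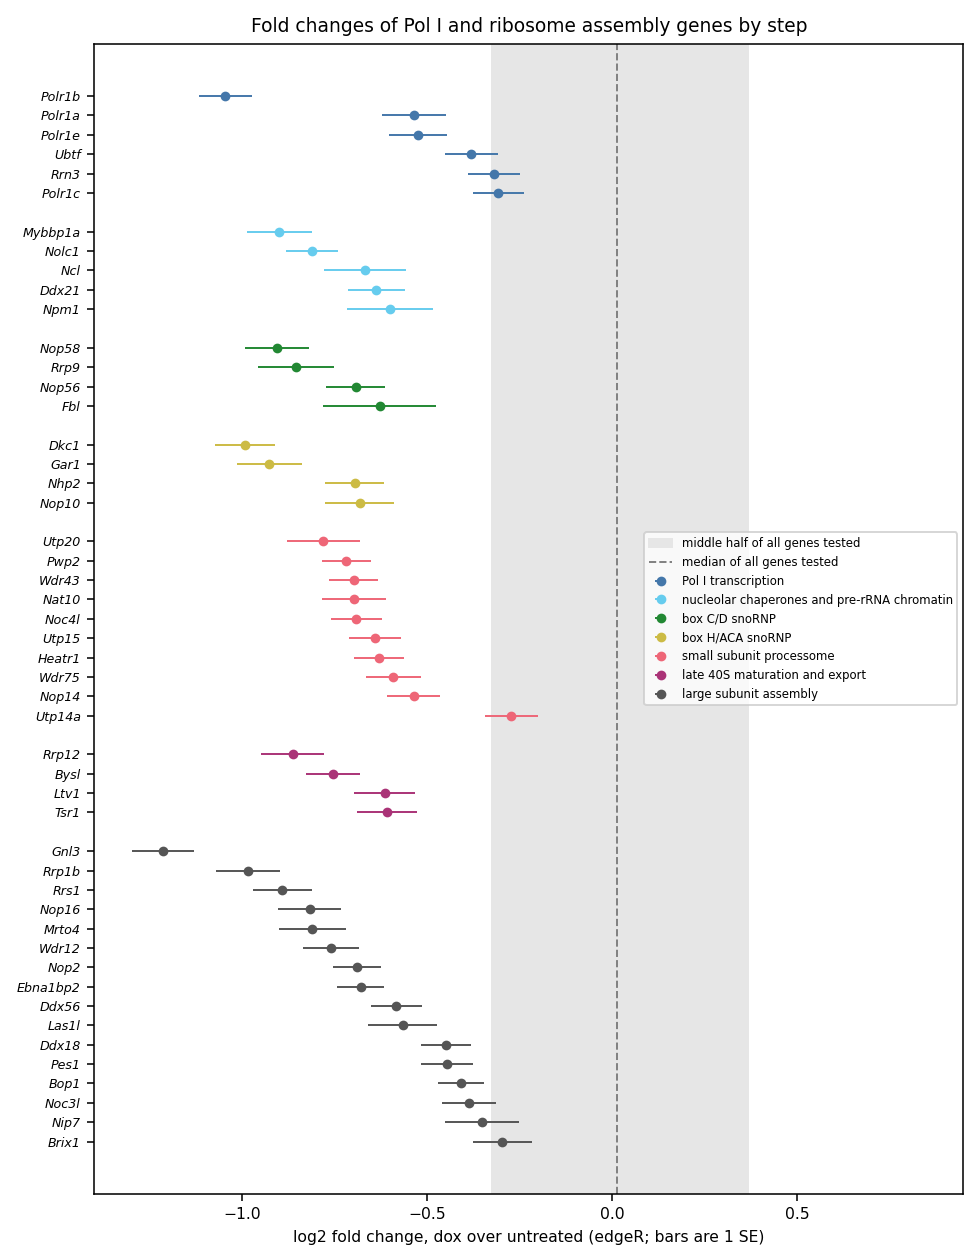
Log2 fold changes (horizontal axis, dox over untreated, edgeR) of the 49 genes, grouped by assembly step, with bars of 1 SE. The grey band spans the quartiles of all genes tested and the dashed line their median of 0.01. All points lie left of 0, from -1.21 for Gnl3 to -0.27 for Utp14a.

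Together the 49 genes held 4765, 5191 and 5527 CPM in dox replicates 1, 2 and 3, against 7974, 8353 and 8463 CPM in untreated replicates 1, 2 and 3. The 6 sums did not overlap, and the dox mean was 37.5% below the untreated mean. As a share of all reads they took 0.474%, 0.517% and 0.553% in the dox libraries and 0.804%, 0.827% and 0.851% in the untreated libraries. Dox replicate 1 was the lowest dox library for 32 of the 49 genes, dox replicate 2 for 14 and dox replicate 3 for 3. Neutrophil markers summed to 537.4, 114.9 and 256.9 CPM in dox replicates 1, 2 and 3. Without dox replicate 1 all 49 genes were still called lower. Macrophage markers summed to 51.4 and 64.2 CPM in dox replicates 2 and 3, above the 20.1 to 29.2 CPM of untreated libraries. The part of such cells in these values was not tested. By step, the summed mean was lower in dox libraries by 27.7% for Pol I transcription and 36.1% for the small subunit processome. It was 36.3% lower for large subunit assembly, 37.9% for late 40S maturation and 38.5% for nucleolar chaperones and pre-rRNA chromatin. The latter step is called nucleolar chaperones below. For the box C/D and box H/ACA snoRNP the summed mean was 43.1% and 45.3% lower. Single genes weighed heavily in some sums. In untreated libraries Ubtf held 336.3 of the 683.9 CPM of Pol I transcription, and Ncl held 2129 of the 3613 CPM of the nucleolar chaperones. Differences between steps were not tested.

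**Figure D2:**
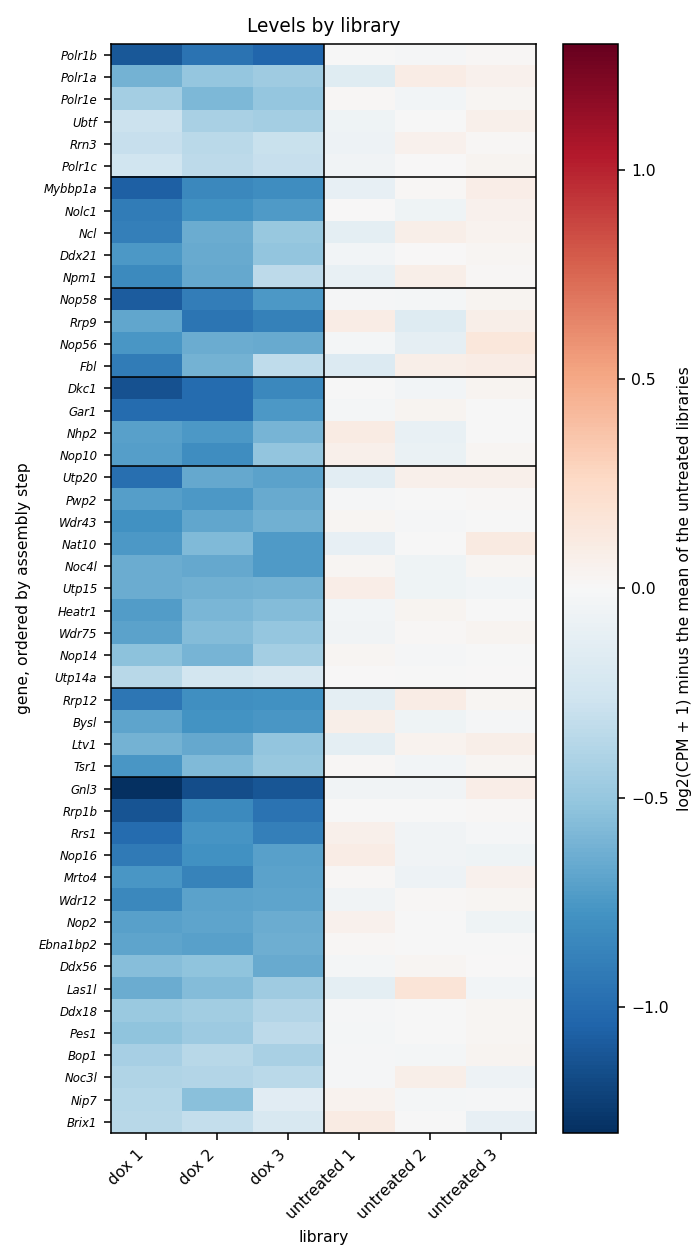
Level of each of the 49 genes in each library, as log2(CPM + 1) minus the mean of the untreated libraries, with dox libraries in the left columns and untreated libraries in the right ones. Black lines part the assembly steps. The 3 dox columns are blue for all 49 genes, and dox replicate 1 has the lowest value for 32 of them.

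The changes were uneven between genes. Their standard deviation (SD) over the 49 genes was 0.21 on the log2 scale, against a median SE of 0.08 for a single gene. A gene's level per length in untreated cells, which spanned 10.9 to 257.9 RPKM (CPM divided by the gene length in kilobases), was only weakly related to its fold change (Pearson's r = -0.22, Spearman's rho = -0.17 across 49 genes, which share the same 6 libraries and are not independent).

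The promoters of these genes are shown because the genes fell together and because Myc, which binds the E-box letters CACGTG, is the textbook regulator of this programme. Myc itself was lower in dox libraries (98.1 ± 15.9 CPM) than in untreated libraries (294.3 ± 20.9 CPM, SD, n = 3 each), the only one of 7 tested genes of its network called lower. Of its antagonists, Mxd4 (log2 fold change 1.32, SE 0.08) and Mxd1 (0.61, SE 0.10) were higher. The antagonists Mnt (0.14, SE 0.14) and Mxi1 (-0.03, SE 0.08) were not called, nor were Max and Mycn. RefSeq windows of 250 bases before to 50 bases after the start site (build GRCm38.p6) were at hand for 44 of the 50 symbols. Sites outside these windows and other E-box letters were not searched, so a gene without a match may still hold one. CACGTG, which reads the same on both strands, stood in a window of 8 of these 44 genes (18.2%) and of 2187 of all 27025 genes in the table (8.09%). Counted by window it was 8 of 52 (15.4%) for the listed genes and 7.15% of all 32851 windows. All 44 listed genes passed the low-count filter, but the 27025 genes were not limited to those that did, so the sets are unlike. The 8 genes were Rrn3, Mybbp1a, Wdr43, Utp20, Ltv1, Tsr1, Nop2 and Pes1. Their median log2 fold change was -0.65 (range -0.90 to -0.32), and that of the 36 genes without the letters was -0.68 (range -1.21 to -0.27). Polr1b and Gnl3, the genes with a fold of at least 2, were among the 36. Whether Myc or these letters had a part in the lower levels was not tested.

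The windows of the 3 genes with the smallest p among those that hold the letters follow, with CACGTG in capitals, and then that of Polr1b, the gene with the smallest p of the list, as a window without it. They lie at chr17:71615965-71616264 (plus strand), chr6:125131633-125131932 (plus strand), chr11:72441077-72441376 (plus strand) and chr2:129100746-129101045 (plus strand) in GRCm38.p6, all written 5′ to 3′ along the gene. The letters begin at base 18 and base 41 after the start site in Wdr43 and Mybbp1a and at base -60 before it in Nop2.
Wdr43: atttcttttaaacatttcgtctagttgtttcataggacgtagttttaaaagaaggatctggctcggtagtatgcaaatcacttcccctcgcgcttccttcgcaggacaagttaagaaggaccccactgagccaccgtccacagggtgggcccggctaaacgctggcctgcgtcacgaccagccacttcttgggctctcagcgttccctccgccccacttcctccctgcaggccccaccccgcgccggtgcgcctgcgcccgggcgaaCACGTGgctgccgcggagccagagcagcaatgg
Nop2: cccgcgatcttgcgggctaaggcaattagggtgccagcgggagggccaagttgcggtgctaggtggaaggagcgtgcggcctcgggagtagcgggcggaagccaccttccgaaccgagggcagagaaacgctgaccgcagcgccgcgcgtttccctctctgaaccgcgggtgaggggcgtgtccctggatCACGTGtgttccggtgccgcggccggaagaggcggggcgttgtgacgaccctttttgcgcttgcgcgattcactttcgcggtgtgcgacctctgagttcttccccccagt
Mybbp1a: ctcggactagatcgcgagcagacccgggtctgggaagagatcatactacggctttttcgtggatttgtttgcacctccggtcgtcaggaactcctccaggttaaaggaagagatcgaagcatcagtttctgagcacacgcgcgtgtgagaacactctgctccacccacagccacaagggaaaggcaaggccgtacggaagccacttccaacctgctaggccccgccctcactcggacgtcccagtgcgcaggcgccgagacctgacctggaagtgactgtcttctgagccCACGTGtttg
Polr1b: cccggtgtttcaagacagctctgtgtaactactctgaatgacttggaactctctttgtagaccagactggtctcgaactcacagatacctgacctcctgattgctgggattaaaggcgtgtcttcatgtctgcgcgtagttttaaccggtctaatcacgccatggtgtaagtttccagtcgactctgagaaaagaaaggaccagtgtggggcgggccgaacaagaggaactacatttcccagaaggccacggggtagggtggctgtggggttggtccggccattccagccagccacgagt

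Pol I transcription was covered by 6 genes, all lower in dox libraries (median -0.45), of which only Polr1b reached a fold of 1.5. Polr1b (Entrez Gene 20017) encodes the second largest subunit, which forms the catalytic core with the largest subunit, Polr1a. It measured 40.7, 45.1 and 42.7 CPM (618, 648 and 667 reads) in dox replicates 1, 2 and 3, against 88, 87.7 and 89.6 CPM (1259, 1307 and 1318 reads) in untreated replicates 1, 2 and 3. The groups stood far apart relative to their spread, and the gene was 2.06-fold lower after dox (log2 fold change -1.05, SE 0.07, adjusted p = 8.86e-06, edgeR). Polr1a (20019) measured 66.3, 71.7 and 73.6 CPM (1007, 1030 and 1150 reads) in dox libraries and 91.4, 109 and 106.2 CPM (1308, 1624 and 1563 reads) in untreated libraries (-0.54, SE 0.09, adjusted p = 0.000721, edgeR). The groups did not overlap, though untreated replicate 1 was nearer to the dox libraries than the other untreated ones. Polr1e (64424), part of the subunit pair that helps the enzyme start and elongate, measured 23.4, 21.1 and 22.3 CPM (356, 303 and 349 reads) in dox libraries and 32.4, 31.2 and 32.7 CPM (463, 465 and 481 reads) in untreated libraries (-0.53, SE 0.08, adjusted p = 0.000502, edgeR).

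The smallest changes of this step were those of the initiation factors and of a subunit that Pol I shares with Pol III. Ubtf, which bends and opens the ribosomal DNA, changed by -0.38 (SE 0.07), with 258.3 ± 15.7 CPM in dox libraries and 336.3 ± 14.4 CPM in untreated libraries (SD, n = 3 each). Rrn3, which links Pol I to its promoter factors, changed by -0.32 (SE 0.07), and Polr1c, the shared subunit, by -0.31 (SE 0.07). The ratio of Polr1b to Ubtf in RPKM was 0.20 ± 0.02 in dox libraries and 0.316 ± 0.01 in untreated libraries, and that of Polr1b to Polr1a was 0.928 ± 0.038 and 1.33 ± 0.13 in the same order. Both ratios were lower in every dox library than in every untreated one. Each had p = 0.1 in an exact two-sided permutation test, the smallest that 3 libraries against 3 allow, and p = 0.15 after adjustment over the 12 ratios computed for this report. The ratios were picked after being seen, and the adjustment does not allow for that choice. Here and below, these p-values therefore only describe the separation of the libraries.

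Among 10 further Pol I genes, 9 passed the filter, and 5 of these were lower, 1 was higher and 3 were not called (median -0.24). Polr1g, the partner of Polr1e, measured 11.6, 13.1 and 10.8 CPM in dox libraries and 26.9, 21.8 and 23.2 CPM in untreated libraries (-1.02, SE 0.12, adjusted p = 0.000123, edgeR), a change as deep as that of Polr1b. Tcof1, the treacle protein that holds Pol I factors in the nucleolus, changed by -0.50 (SE 0.06), Taf1d, of the promoter selectivity factor, by -0.51 (SE 0.08), Polr1f by -0.45 (SE 0.10) and Polr1d by -0.24 (SE 0.07). The call of Polr1d was lost without dox replicate 2 (adjusted p = 0.0541, edgeR), untreated replicate 1 (0.0582) or untreated replicate 3 (0.0558). Ttf1, which ends Pol I transcription, rose by 0.23 (SE 0.07, adjusted p = 0.0278, edgeR), a call that was lost without dox replicate 2 (adjusted p = 0.0552), dox replicate 3 (0.0562), untreated replicate 1 (0.0832) or untreated replicate 3 (0.101), and with no low-count filter (0.0788). Polr1h (-0.24), Taf1b (0.13) and Taf1c (0.11) were not called, though Polr1h was called lower without untreated replicate 1 (adjusted p = 0.0321, edgeR), and Taf1a had too few reads to be tested.

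The other RNA polymerases gave a scale for these values. Of the 5 subunits that all 3 polymerases share, 4 were lower (Polr2f, Polr2e, Polr2h and Polr2l, from -0.78 to -0.47) and Polr2k (-0.26) was not called. Without untreated replicate 2 the call of Polr2l was lost (adjusted p = 0.0514, edgeR). Of 8 Pol II subunits, 6 were lower, each by less than 1.5-fold (median -0.31), and Polr2a (-0.18) and Polr2c (-0.16) were not called. Polr2j (-0.37, SE 0.08), Polr2m (-0.29, SE 0.06) and Polr2b (-0.34, SE 0.07) had the smallest p. Without untreated replicate 1 Polr2a was called lower (adjusted p = 0.0179, edgeR). Of 10 Pol III subunits, 3 were lower, 1 was higher and 6 were not called (median -0.03). With upper-quartile scaling 3 were higher, Polr3b (adjusted p = 0.0357, edgeR) and Crcp (0.0465) being added. Polr3g measured 5.66, 9.88 and 9.28 CPM in dox libraries and 22.9, 19.1 and 22.4 CPM in untreated libraries (-1.38, SE 0.19), while its paralog Polr3gl measured 25.1, 25.8 and 19.3 CPM in dox libraries and 16.2, 17.8 and 19 CPM in untreated libraries (0.40, SE 0.13, adjusted p = 0.023, edgeR). These subunits take the same place in alternative forms of Pol III, and their changes ran in opposite directions. The rise of Polr3gl was not called without dox replicate 1 (adjusted p = 0.0689), dox replicate 2 (0.0612), untreated replicate 1 (0.0767) or untreated replicate 2 (0.0625). Polr3e (-0.62, SE 0.08) and Polr3d (-0.56, SE 0.09) were the others called lower. The difference between the polymerases was not tested.

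**Figure D3:**
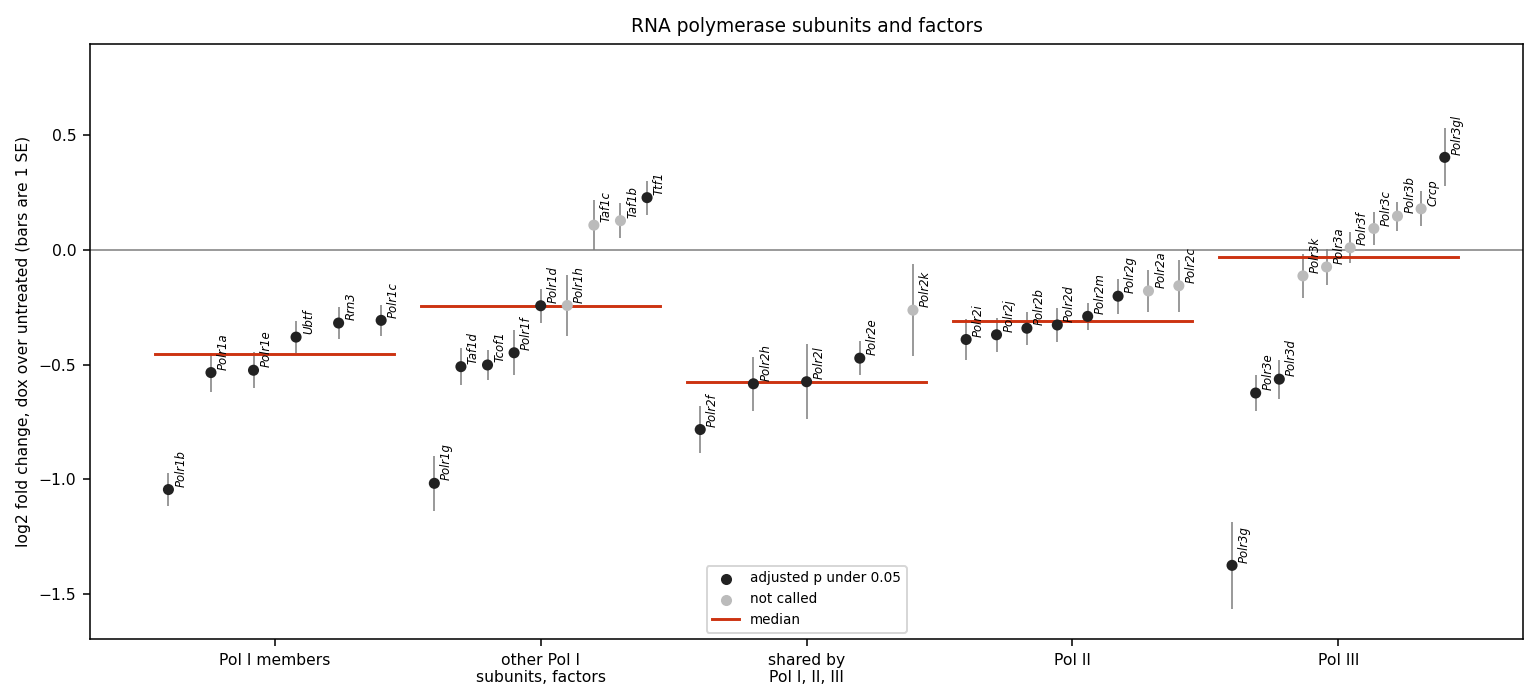
Log2 fold changes (vertical axis, dox over untreated, edgeR, bars of 1 SE) of Pol I genes of the list, further Pol I genes, shared subunits, and Pol II and Pol III subunits. Dark points were called at an adjusted p under 0.05, and red lines are medians, from -0.58 for the shared subunits to -0.03 for Pol III. Polr1b, Polr1g and Polr3g lie below -1.

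The step of nucleolar chaperones and pre-rRNA chromatin was lower in all 5 genes, by 1.52-fold to 1.87-fold and thus past 1.5-fold (median -0.67). Nolc1 (70769), a chaperone of snoRNPs that shuttles between nucleolus and cytoplasm, measured 126.3, 138 and 142.9 CPM (1919, 1982 and 2232 reads) in dox libraries and 238.8, 229.4 and 247 CPM (3417, 3420 and 3633 reads) in untreated libraries. Its groups were well separated (-0.81, SE 0.07, adjusted p = 2.54e-05, edgeR). Mybbp1a (18432), a Myb-binding protein that also acts on Pol I transcription, measured 254.7, 297 and 303.9 CPM (3870, 4267 and 4746 reads) in dox libraries and 493.9, 536.6 and 566 CPM (7066, 7998 and 8327 reads) in untreated libraries (-0.90, SE 0.09, adjusted p = 4.76e-05, edgeR). Ddx21 (56200), a helicase of the Pol I and snoRNP steps, measured 286.7, 305.8 and 338.2 CPM (4357, 4393 and 5283 reads) in dox libraries and 471.3, 484.3 and 492.1 CPM (6743, 7219 and 7239 reads) in untreated libraries (-0.64, SE 0.08, adjusted p = 0.000142, edgeR). Dox replicate 3 was the highest dox library for all 3 genes and lay below every untreated one.

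Ncl, which encodes nucleolin, had the most reads of the list, with 1148, 1362 and 1511 CPM in dox libraries and 1952, 2241 and 2195 CPM in untreated libraries (-0.67, SE 0.11, adjusted p = 0.000926, edgeR). Npm1, which encodes nucleophosmin, measured 129.4, 145.3 and 181.4 CPM in dox libraries and 215.6, 243.3 and 233.3 CPM in untreated libraries (-0.60, SE 0.12, adjusted p = 0.00204, edgeR). Npm1 has near-identical processed pseudogenes, and how the authors' counting split their reads is not given in the sources used here, so its level is uncertain.

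**Figure D4:**
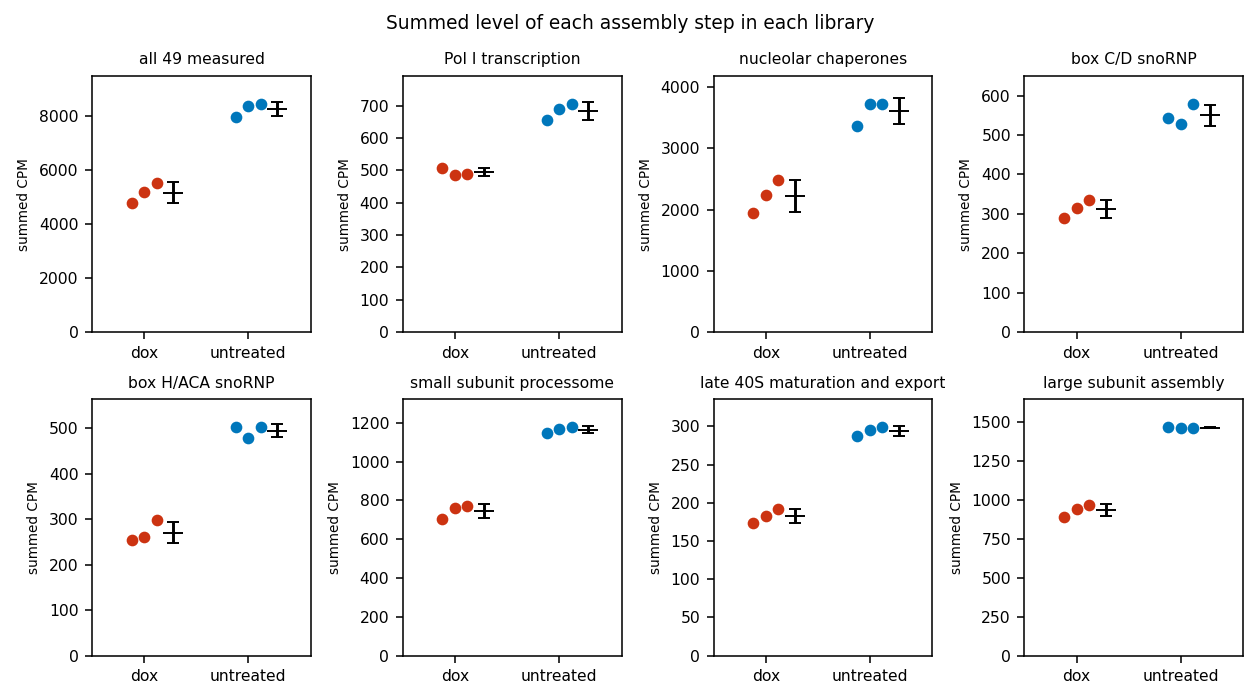
Summed CPM of the 49 genes and of each assembly step in each library (vertical axes from 0), with the mean and SD of each group in black. In all 8 panels the 3 dox libraries, at left, lie below the 3 untreated ones, and the summed dox mean is 27.7% lower for Pol I transcription and 45.3% lower for the box H/ACA snoRNP.

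The box C/D snoRNP, the particle that carries out 2′-O-methylation of ribosomal RNA, fell in all 4 members (median -0.77). Nop58 (55989), a core scaffold protein, measured 134.8, 153 and 169.3 CPM (2048, 2198 and 2645 reads) in dox libraries and 283.4, 281.6 and 292.1 CPM (4055, 4198 and 4297 reads) in untreated libraries. This was 1.87-fold lower (-0.91, SE 0.09, adjusted p = 3.95e-05, edgeR). Nop56 (67134), its paralog on the other side of the particle, measured 110.6, 119.2 and 119.1 CPM (1681, 1713 and 1861 reads) in dox libraries and 183.7, 173.4 and 207.1 CPM (2628, 2585 and 3047 reads) in untreated libraries (-0.69, SE 0.08, adjusted p = 0.000115, edgeR). Rrp9 (27966), which belongs to the U3 particle that primes processing of the precursor, measured 31.9, 26.3 and 27.6 CPM (485, 378 and 431 reads) in dox libraries and 55.1, 45.8 and 54.4 CPM (788, 683 and 801 reads) in untreated libraries (-0.86, SE 0.10, adjusted p = 0.000146, edgeR). Untreated replicate 2 was the lowest of its group for Nop58, Nop56 and Rrp9 and still lay above all dox libraries. Fbl, which encodes the methyltransferase fibrillarin, changed by -0.63 with the widest error of the list (SE 0.15), on 193 to 304 reads in dox libraries and 311 to 389 reads in untreated libraries.

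Per length, Nop58 stood at 77.1 ± 8.75 RPKM in dox libraries and 144.6 ± 2.83 RPKM in untreated libraries, Nop56 at 61.4 ± 2.61 and 99.3 ± 9.12 RPKM in the same order, and Fbl at 13.8 ± 2.92 and 21.3 ± 2.24 RPKM (SD, n = 3 each). The order Nop58, Nop56, Fbl in RPKM was the same in all 6 libraries. Levels set between genes depend on the deposited gene length and on how reads were counted, so such orders are uncertain here and below. The ratio of Nop56 to Fbl was 4.56 ± 0.79 in dox libraries and 4.68 ± 0.56 in untreated libraries (exact two-sided permutation p = 0.8). The ratio of Nop58 to Fbl was 5.67 ± 0.56 in dox libraries and 6.82 ± 0.72 in untreated libraries, without overlap (exact permutation p = 0.1, adjusted p = 0.15).

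The box H/ACA snoRNP, which converts uridines of ribosomal RNA to pseudouridine and is also part of telomerase, fell in all 4 core members (median -0.81). Dkc1 (245474), the pseudouridine synthase dyskerin, measured 112.9, 123.8 and 138.4 CPM (1715, 1779 and 2162 reads) in dox libraries and 248.1, 242.7 and 255.8 CPM (3550, 3617 and 3763 reads) in untreated libraries. It was 1.99-fold lower (-0.99, SE 0.08, adjusted p = 1.99e-05, edgeR). Gar1 (68147) measured 36.7, 36.5 and 43.9 CPM (557, 524 and 685 reads) in dox libraries and 72.7, 75.9 and 74 CPM (1040, 1131 and 1088 reads) in untreated libraries (-0.93, SE 0.09, adjusted p = 3.81e-05, edgeR). Nhp2 (52530), which binds the guide RNA, measured 59.5, 58 and 64 CPM (904, 833 and 999 reads) in dox libraries and 105.3, 91.4 and 97.5 CPM (1506, 1362 and 1434 reads) in untreated libraries (-0.70, SE 0.08, adjusted p = 0.000102, edgeR). Nop10, a small protein that holds the complex together, changed by -0.68 (SE 0.09), close to Nhp2.

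In RPKM, Nop10 stood at 66.4 ± 7.26 in dox libraries and 106.7 ± 5.78 in untreated libraries, Nhp2 at 60.2 ± 3.09 and 97.6 ± 6.94, Dkc1 at 44.6 ± 4.57 and 88.8 ± 2.36, and Gar1 at 30.7 ± 3.31 and 58.4 ± 1.26 in the same order (SD, n = 3 each). Gar1 was thus the lowest of the 4 in both groups. Relative to Dkc1, Nhp2 stood at 1.36 ± 0.10 in dox libraries and 1.10 ± 0.07 in untreated libraries, and Nop10 at 1.49 ± 0.12 and 1.20 ± 0.05. Neither ratio overlapped between the groups (exact permutation p = 0.1, adjusted p = 0.15 for each). The ratio of Gar1 to Dkc1 was 0.688 ± 0.035 in dox libraries and 0.658 ± 0.028 in untreated libraries, and these overlapped (exact permutation p = 0.2).

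Of 9 further snoRNP proteins and assembly factors, all were lower (median -0.74). Those with the smallest p were Ruvbl2 (-0.78, SE 0.07), an ATPase that helps assemble snoRNPs, Nufip1 (-0.71, SE 0.07), which bridges the snoRNP proteins during assembly, and Snu13 (-0.74, SE 0.07), the core protein that binds box C/D RNA.

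**Figure D5:**
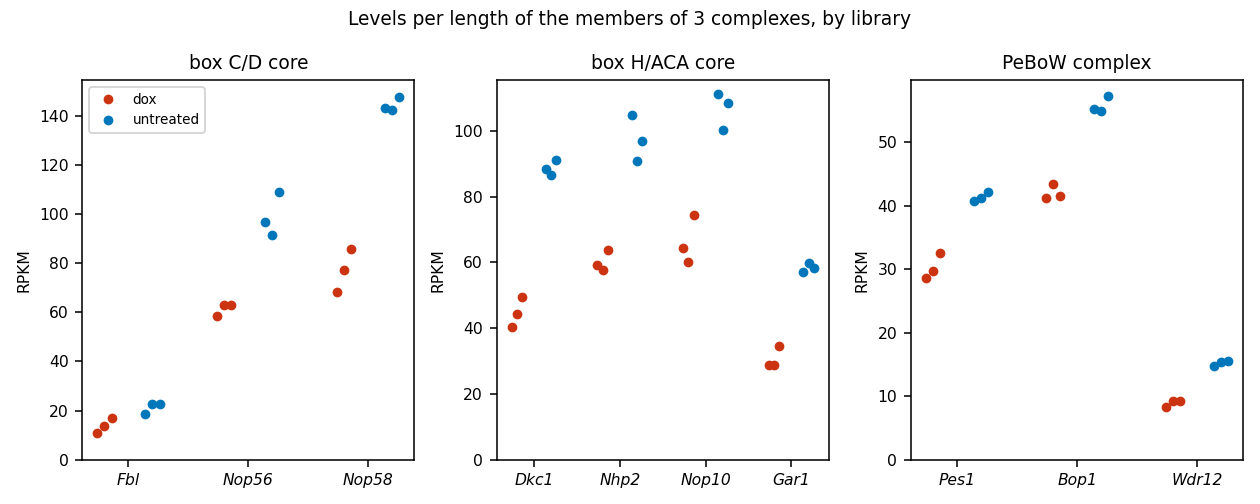
Levels per length (RPKM, vertical axes from 0) of the core proteins of the box C/D and box H/ACA snoRNPs and of the PeBoW complex, with 1 point per library, dox at left and untreated at right for each gene. Every gene is lower in the 3 dox libraries, and Fbl, Gar1 and Wdr12 are the lowest of their complexes in both groups.

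The small subunit processome, which assembles on the nascent precursor, fell in all 10 members (median -0.67), 8 of them by at least 1.5-fold. Pwp2 (110816), a WD-repeat scaffold of the processome, measured 41.7, 41.1 and 43.7 CPM (634, 590 and 682 reads) in dox libraries and 68.7, 69.1 and 70.3 CPM (983, 1030 and 1034 reads) in untreated libraries (-0.72, SE 0.07, adjusted p = 3.63e-05, edgeR). Wdr43 (72515), a WD-repeat protein of the module that first binds the precursor, measured 131.7, 143.1 and 147.5 CPM (2001, 2056 and 2304 reads) in dox libraries and 231.8, 226.7 and 227.1 CPM (3316, 3379 and 3341 reads) in untreated libraries (-0.70, SE 0.07, adjusted p = 3.93e-05, edgeR). For both genes the spread within a group was small beside the gap. Noc4l (100608), which acts with Nop14, measured 50.2, 49.5 and 46.9 CPM (763, 711 and 733 reads) in dox libraries and 80.5, 76.1 and 80.2 CPM (1152, 1134 and 1180 reads) in untreated libraries (-0.69, SE 0.07, adjusted p = 5.26e-05, edgeR).

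Heatr1 (-0.63, SE 0.07), Utp15 (-0.64, SE 0.07) and Wdr75 (-0.59, SE 0.07), which with Wdr43 belong to the module that links the processome to Pol I transcription, changed by similar amounts. Nat10, the cytidine acetyltransferase of the small subunit RNA, changed by -0.70 (SE 0.09), and Utp20, a very large scaffold protein, by -0.78 (SE 0.10). Nop14 (-0.54, SE 0.07) and Utp14a (-0.27, SE 0.07), the activator of a helicase, did not reach 1.5-fold. Utp14a, with 53.1 ± 2.9 CPM in dox libraries and 64.1 ± 0.27 CPM in untreated libraries (SD, n = 3 each), had the smallest change of all 49 genes. Of 34 further processome genes, 25 were lower, 9 were not called and none was higher (median -0.41). Rcl1 (-0.75, SE 0.07), Utp3 (-0.71, SE 0.07) and Tbl3 (-0.77, SE 0.07) had the smallest p.

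Late 40S maturation and export were covered by 4 genes, all lower by more than 1.5-fold (median -0.68). Bysl (53414), which holds the pre-40S particle together until export, measured 33, 30.9 and 31.3 CPM (502, 444 and 489 reads) in dox libraries and 56.4, 51.5 and 52.9 CPM (807, 768 and 778 reads) in untreated libraries (-0.76, SE 0.07, adjusted p = 4.48e-05, edgeR). Rrp12 (107094), a HEAT-repeat export factor, measured 32, 35.4 and 35.8 CPM (487, 509 and 559 reads) in dox libraries and 57.4, 66.8 and 63.8 CPM (821, 995 and 939 reads) in untreated libraries (-0.86, SE 0.08, adjusted p = 4.7e-05, edgeR). Both genes were clear of overlap. Tsr1 (104662), a GTPase-like protein that keeps the pre-40S particle from starting translation, measured 67.4, 76.6 and 81.1 CPM (1024, 1101 and 1267 reads) in dox libraries and 115.3, 111.8 and 116.2 CPM (1650, 1667 and 1709 reads) in untreated libraries (-0.61, SE 0.08, adjusted p = 0.000243, edgeR). Ltv1, which is removed late from the particle, changed by -0.61 (SE 0.08). Of 5 further late 40S factors, Pno1 (-0.82, SE 0.09), Nob1, the nuclease of the last cut (-0.50, SE 0.08), and Riok2 (-0.41, SE 0.10) were lower, and the kinase genes Riok3 (0.18) and Riok1 (-0.04) were not called. With upper-quartile scaling Riok3 was called higher (adjusted p = 0.0297, edgeR).

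Large subunit assembly was covered by 16 measured genes, all lower (median -0.63), 8 of them by at least 1.5-fold. Gnl3 (30877), the nucleolar GTPase nucleostemin, measured 76.5, 88.8 and 91.3 CPM (1162, 1275 and 1426 reads) in dox libraries and 192.6, 191.5 and 211.2 CPM (2756, 2855 and 3107 reads) in untreated libraries. It was 2.32-fold lower (-1.21, SE 0.08, adjusted p = 9.43e-06, edgeR), at percentile 1.91 of the fold changes over all genes tested. Rrp1b (72462), a nucleolar partner of protein phosphatase, measured 32.7, 40.3 and 36.8 CPM (497, 579 and 575 reads) in dox libraries and 72.2, 72.1 and 72.9 CPM (1033, 1074 and 1073 reads) in untreated libraries (-0.98, SE 0.09, adjusted p = 2.66e-05, edgeR). Rrs1 (59014), which brings the 5S RNA particle into the pre-60S, measured 57.8, 68.1 and 62.7 CPM (878, 978 and 979 reads) in dox libraries and 122, 112.8 and 115 CPM (1746, 1682 and 1691 reads) in untreated libraries (-0.89, SE 0.08, adjusted p = 2.87e-05, edgeR). Dox replicate 1 was the lowest library for all 3 genes.

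Nop16 (-0.82, SE 0.08), Mrto4 (-0.81, SE 0.09), which holds the place of the ribosomal stalk protein, Nop2 (-0.69, SE 0.07), a cytosine methyltransferase of the large subunit RNA, and Ebna1bp2 (-0.68, SE 0.06) all fell by more than 1.5-fold. The helicase genes Ddx56 (-0.58, SE 0.07) and Ddx18 (-0.45, SE 0.07) and Las1l (-0.57, SE 0.09), the nuclease that cuts the second internal spacer, fell by less, Ddx56 being just short of 1.5-fold. Noc3l (-0.39, SE 0.07), Brix1 (-0.30, SE 0.08) and Nip7 (-0.35, SE 0.10) were at the shallow end. Nip7 measured 47.4, 42.3 and 55.6 CPM in dox libraries and 63.7, 60.6 and 61.2 CPM in untreated libraries, the least certain call of the list (adjusted p = 0.0153, edgeR). Brix1 measured 83.8, 87 and 93.3 CPM in dox libraries and 116.6, 107.9 and 99.9 CPM in untreated libraries, so that the nearest libraries of the groups were close.

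Pes1, Bop1 and Wdr12 form the PeBoW complex, which is needed to process the large subunit RNAs. Pes1 stood at 30.3 ± 2.01 RPKM in dox libraries and 41.3 ± 0.70 RPKM in untreated libraries, Bop1 at 42 ± 1.19 and 55.8 ± 1.31 RPKM, and Wdr12 at 8.97 ± 0.55 and 15.2 ± 0.42 RPKM in the same order (SD, n = 3 each). Their log2 fold changes were -0.45 (SE 0.07), -0.41 (SE 0.06) and -0.76 (SE 0.08). The ratio of Wdr12 to Pes1 was 0.291, 0.312 and 0.286 in dox libraries and 0.361, 0.373 and 0.368 in untreated libraries, which do not overlap (exact permutation p = 0.1, adjusted p = 0.15). The ratio of Bop1 to Pes1 was 1.39 ± 0.10 in dox libraries and 1.35 ± 0.02 in untreated libraries (exact permutation p = 0.5). The other ratios computed were Nop58 to Nop56 (exact permutation p = 0.2), and Polr1c and Rrn3 to Polr1a (exact permutation p = 0.1 each).

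Of 38 further large subunit factors, 32 were lower, 3 were higher and 3 were not called (median -0.48). The lowest p values were those of Rsl1d1 (-0.85, SE 0.07), Ftsj3 (-0.72, SE 0.06) and Pelp1 (-0.69, SE 0.07). Nop53, a late factor of the pre-60S that recruits the exosome, measured 244.2, 240.8 and 227.2 CPM in dox libraries and 169.8, 170.5 and 165.9 CPM in untreated libraries (0.49, SE 0.06, adjusted p = 0.000185, edgeR), the opposite of every listed gene. Nsa2 was also higher, at 157.7, 161.5 and 170.6 CPM in dox libraries and 132.1, 125.1 and 117.4 CPM in untreated libraries (0.39, SE 0.07, adjusted p = 0.00141, edgeR), and Ddx54 (0.22, SE 0.07, adjusted p = 0.0273, edgeR) was the third. The call of Ddx54 was lost without any of the 5 libraries other than dox replicate 3 (adjusted p = 0.0534 to 0.104, edgeR) and with no low-count filter (0.0747). Gnl3l (-0.17), Mak16 (-0.18) and Surf6 (-0.11) were not called, though Gnl3l was called lower without untreated replicate 1 (adjusted p = 0.0432, edgeR) and Mak16 without dox replicate 3 (0.0341). All 14 genes of a list of subunits and cofactors of the RNA exosome, which trims the precursor ends, were lower (median -0.60). The smallest p were those of Exosc7 (-0.91, SE 0.09), Exosc2 (-0.74, SE 0.08) and Dis3 (-0.69, SE 0.07).

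Over all 6 lists of further Pol I, snoRNP, assembly and exosome genes, 88 of 109 tested genes were lower, 4 (Ttf1, Nop53, Nsa2 and Ddx54) were higher and 17 were not called, with a median of -0.47. The listed 49 genes, with a median of -0.68, were chosen with earlier results of these data known, so the medians are set side by side as a description.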

How the data were processed

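RNA from sorted mouse leukemia cells was sequenced in 6 libraries, 3 dox and 3 untreated. The authors deposited raw counts of reads per Entrez gene, with a gene length per row. The build was mm9 and the tools included featureCounts and CASAVA 1.8.2, per the submitters' processing notes. With strand handling, aligner and annotation not given in the sources used here, overlapping genes cannot be told apart. The per-sample tables equalled the series table. Replicate pairs differed by more than sampling noise (chi-square per degree of freedom 7.31 to 18.8).

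Genes passing filterByExpr (minimum count 10; 12275 genes, 99.9% of reads) were scaled by TMM (factors 0.991 to 1.01) and tested with edgeR 4.0.16 in R 4.3.3, with no covariate. The SE is the size of the log2 fold change over the square root of F. RPKM used the deposited gene length. Symbols were matched through a GRCm38.p6 RefSeq table (24176 of 26286 identifiers, and 257 of 260 list entries, 3 by older symbols).

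The members and lists were chosen with earlier results of these data known. Named with each library's values are the 3 smallest p of each assembly step. Named of the further lists are the 3 smallest p and every gene behind a count of 5 or fewer. The values of Ncl, Npm1, Nip7, Brix1, Polr1g, Polr3g, Polr3gl and of the ratios were picked after being seen. A Pol III gene is not reported here and was left out of its list, counts and median. The code was tested on simulated data. Alternatives were other scalings, filters and tests (DESeq2 1.42.0, limma 3.58.1), a replicate block and leaving out each library.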

Additional observations from a re-analysis of the deposited data

How the results depend on the processing

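All 49 genes were called lower under each of the 14 alternatives run, and none was called higher, with adjusted p up to 0.0453. Their median log2 fold change ran from -0.72 to -0.65, and 30 to 37 genes reached 1.5-fold. Every assembly step kept its count of lower genes. Upper-quartile scaling moved the median of all genes to 0.04, against 0.01, and the median of the 49 genes minus that of all genes was -0.69 under both. Leaving out 1 library moved the medians of single steps most for the nucleolar chaperones, between -0.77 and -0.59. Same-numbered libraries did not vary together in all pairs (correlations of 0.32, 0.30 and -0.04), and dox replicate 3 did not correlate best with its own number, so the numbers were not taken as pairs. With the replicate block 49 genes were lower, with a median of -0.68. Among further genes, calls near the threshold, such as Polr2g (adjusted p = 0.0497), Ddx24 and Imp3, were lost under several alternatives, and their cause was not tested. Depth was similar in all libraries. The least covered of the 49 genes, Fbl, had 193 reads in dox replicate 1 and the widest SE of the list (0.15). Whether depth limited any gene was not tested.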
